A study of Mus musculus with 3 samples.

Results

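Processed pseudogenes are copies of mRNAs that were reverse transcribed and inserted into the genome, so that they lack introns and resemble the spliced transcript of a parent gene. The annotation used here, GENCODE M21 on the mouse build GRCm38, holds 10234 of them among 55450 genes, taken as all genes typed as processed pseudogene (9938) or transcribed processed pseudogene (296), with Gm7162 and Gm15681 left out. For 9402 of the 10234 a protein-coding parent was found as the best alignment of the pseudogene to coding transcripts. Reads were assigned to these loci when their first 20 nt matched a pseudogene transcript on either strand. The rule uses the annotation alone.

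The RNA came from fully grown oocytes of Mus musculus, the large oocytes of the ovarian follicle before ovulation. All the mice had been given 5 IU of PMSG, a gonadotropin that stimulates follicle growth, 48 hours earlier. Gel slices of 19-24 nt, 24-30 nt and 19-30 nt were made into 1 library each, with no second condition and no replicate. Strain, age and number of animals are not given in the sources used here, and small RNA reads do not measure mRNA markers, so the labelled cell type was not checked. The files held 764539, 1484509 and 943811 reads in that order, of which 305283, 341861 and 142821 matched an annotated transcript and had a usable length. With 1 library per window no test between windows was possible, and every interval below covers counting error only, at 95% confidence. PCR copies were not marked, so reads are not independent molecules. The libraries are bulk, so few reads per oocyte and few contributing oocytes cannot be told apart.

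Mouse oocytes make endogenous siRNAs, small RNAs cut by Dicer from long double-stranded RNA and loaded onto Argonaute proteins. Such double strands can form when an antisense transcript of a pseudogene meets the mRNA of the parent gene, or when a transcript holds the copy in inverted orientation. Oocytes also carry piRNAs, longer small RNAs bound by Piwi proteins, which often begin with U and often derive from transposable elements. A read that is antisense to a pseudogene is antisense to the parent mRNA as well.

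The sequences of the most frequent small RNAs show how a read can be assigned to a pseudogene rather than to its parent. Each is given 5′ to 3′ as sequenced, with capitals for the bases that differ from the aligned parent transcript (or have no base aligned to them), and each matched the pseudogene over its whole length.
Gm16574 antisense (parent Rangap1): tggcaacggTGcccttagagc
Gm31941 antisense (parent Elob): TgtgctgtctgActagtgaCgc
Gm49591 antisense (parent Hdac1): tggtcatctcctcagcGttgg
Gm9403 antisense (parent Hsp90ab1): AttgggCatgGtgtcaattttc
Gm6201 antisense (parent Lcp1): Atcattctccagggctttgtt
Gm5790 antisense (parent Coro1c): tcagggaaagggtCagtccatt
They were read 50, 119, 22, 12, 5 and 6 times. On GRCm38 they lie at chr17:12819014-12819034 (minus strand), chr7:46975540-46975561 (minus), chr16:78251215-78251235 (minus), chr3:132842606-132842627 (minus), chr14:105200746-105200766 (plus) and chr13:47010588-47010609 (plus). The number of bases that part a read from the parent was 1 in Gm49591, Gm6201 and Gm5790, 2 in Gm16574 and 3 in Gm31941 and Gm9403.

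Some loci had reads of the parent mRNA in sense orientation opposite the antisense reads. For chosen loci, pairs were sought whose 5′ ends overlap by 17 to 23 nt. The pair taken was that whose less frequent read was seen most often, and then that with most reads in all. The overlaps shown are therefore set by this choice, and overlaps of all lengths are given below. Those of 4 loci with reads along much of the parent are shown, with capitals as above in the antisense read and the parent read in lower case.
Gm13384 antisense: aacttgctcctagagAacacc
Traip sense: tgtcctctaggagcaagttga
Gm6201 antisense: ttctctcgtcaatTgtgtctgg
Lcp1 sense: acacgattgacgagagaacgat
Gm5790 antisense: tcaccacaggctcAgtcaggga
Coro1c sense: tccctgaccgagcctgtggtga
Gm16042 antisense: tcaagctcAgaaagatcagggt
Fbxo5 sense: tgatctttccgagcttgaagtg
The overlaps were 19 nt for Gm13384 with Traip, 18 nt for Gm6201 with Lcp1, 22 nt for Gm5790 with Coro1c and 18 nt for Gm16042 with Fbxo5. Each of the 8 reads was seen 1 to 3 times. The Traip read crosses an exon junction: its 21 nt span chr9:107962325-107962834 on the plus strand, so it matches spliced RNA. In each of these 4 pairs the antisense read carries 1 base that differs from the parent, which leaves 1 mismatch against the parent mRNA.

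For 3 of the leading loci, the stretch with most antisense reads is shown in the sense strand of the pseudogene, with capitals for bases that differ from the parent.
Gm16574: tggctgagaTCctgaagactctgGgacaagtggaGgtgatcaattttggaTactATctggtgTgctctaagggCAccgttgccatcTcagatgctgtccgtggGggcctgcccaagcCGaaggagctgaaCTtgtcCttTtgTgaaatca
Gm49591: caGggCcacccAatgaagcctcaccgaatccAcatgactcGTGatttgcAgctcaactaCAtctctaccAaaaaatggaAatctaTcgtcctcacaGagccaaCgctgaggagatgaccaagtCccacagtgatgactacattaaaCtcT
Gm6201: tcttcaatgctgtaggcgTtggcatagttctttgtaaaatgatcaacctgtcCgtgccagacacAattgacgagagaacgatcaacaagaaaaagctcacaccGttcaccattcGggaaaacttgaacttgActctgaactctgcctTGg
These windows of 150 nt lie at chr17:12818951-12819100 (plus), chr16:78251116-78251265 (plus) and chr14:105200550-105200699 (minus). They hold 629 of the 929 unique antisense reads of Gm16574, 138 of the 172 of Gm49591 and 50 of the 177 of Gm6201. The reads began at 58, 26 and 23 distinct positions and covered 150, 140 and 107 of the bases. The windows differ from the parent at 19, 18 and 8 aligned bases.

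Reads that match processed pseudogenes were abundant, but most of them matched many places. Outside structural RNA (microRNA, mitochondrial tRNA, rRNA, snRNA and snoRNA loci), the matching reads numbered 15550 (19-24 nt), 97125 (24-30 nt) and 39678 (19-30 nt). Per 1000000 matched reads these are 50936 (50139 to 51743), 284107 (282323 to 285899) and 277816 (275089 to 280564). A further 4697, 3384 and 3052 reads also matched structural RNA and were set apart. Of the 10234 loci, 3494 had at least 1 read and 6740 had none. A read was called unique when its first 20 nt occur at 1 place among all annotated transcripts. Unique reads numbered 1599, 3378 and 3271, or 10.3% (9.82 to 10.8), 3.48% (3.36 to 3.595) and 8.24% (7.98 to 8.52) of the pseudogene reads, and came from 355 loci. Transcribed pseudogenes had a unique read more often, with 41 of 296 (13.9%) against 3.16% of the others.

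The shared reads were parted by what they share. In the 19-30 nt library 84.6% (84.3 to 85.0) of pseudogene reads also matched some coding transcript, and in the 19-24 and 24-30 nt libraries 81.8% (81.2 to 82.4) and 91.1% (90.9 to 91.3). Sharing with the pseudogene's own parent at no more than 20 places was rarer, with 12.6% (12.3 to 12.9), 14.9% (14.4 to 15.5) and 7.56% (7.39 to 7.73). The limit of 20 places was chosen after the data were seen. Reads at over 20 places made up 57.2%, 53.9% and 69.2%, the largest class in every library.

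Unique reads came mostly from the strand opposite to the pseudogene. In the 19-24 nt library 1365 of 1599 were antisense, 85.4% (83.5 to 87.0). In the 24-30 nt library 2826 of 3378 were antisense, 83.7% (82.4 to 84.9), and in the 19-30 nt library 2715 of 3271, 83.0% (81.7 to 84.3). In the 19-24 and 19-30 nt libraries the antisense share of other gene types was lower. In the 19-30 nt library 30.8% (30.1 to 31.5) of the 17240 unique reads in protein-coding genes were antisense, as were 21.1% (19.3 to 23.01) of 1867 in lincRNAs and 40.3% (32.4 to 48.8) of 134 in unprocessed pseudogenes. None of these intervals overlaps that of the processed pseudogenes. In the 19-24 nt library the shares were 24.6%, 19.2% and 35.1%. In the 24-30 nt library lincRNAs and unprocessed pseudogenes had 29.6% and 34.4%, and coding genes reached 70.0% (69.7 to 70.3). Without Gm16574 and Gm31941, the loci with most unique short reads, the antisense share of the 19-30 nt library was 77.3% (75.4 to 79.1). Reads shared with the own parent were split, with 1986 antisense only and 2905 sense only in that library.

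The unique reads were short. In the 19-30 nt library, the only one whose reads show every insert up to 30 nt, 74.6% of all pseudogene reads were 20 to 23 nt long, and 61.7% of those began with U. Of its unique reads 84.6% (83.3 to 85.8) were 20 to 23 nt long and 9.75% (8.78 to 10.8) were 25 to 30 nt. The commonest lengths were 22 nt with 1159 reads and 21 nt with 897. Reads shared with the own parent were slightly less often short, with 82.2% (81.1 to 83.2) at 20 to 23 nt and 12.04% (11.2 to 12.97) at 25 to 30 nt. Reads at over 20 places were longer, with 70.7% (70.1 to 71.2) at 20 to 23 nt and 23.03% (22.5 to 23.6) at 25 to 30 nt. Unique reads of coding genes were 20 to 23 nt long in 83.8% (83.2 to 84.3), close to the share in pseudogenes.

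**Figure D1:**
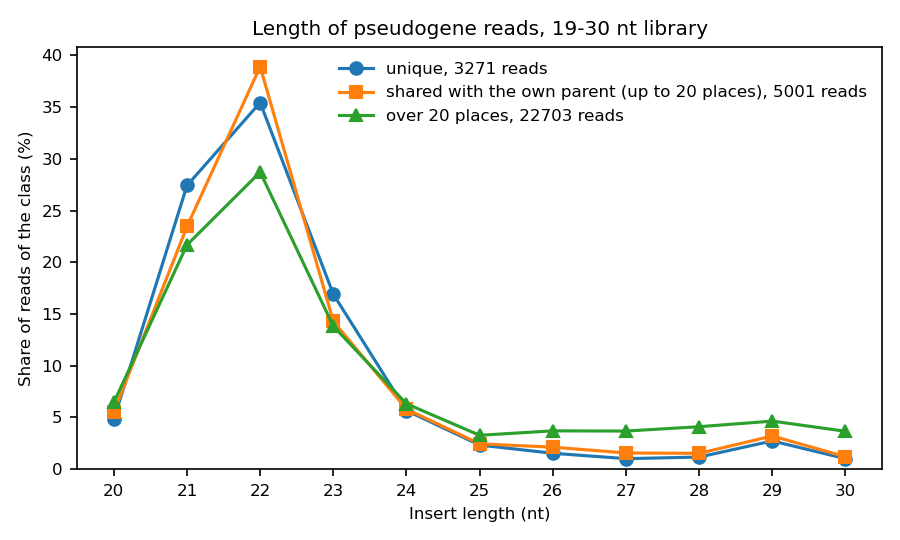
Insert length in nt (x axis) against the share of the reads of a class in percent (y axis), 19-30 nt library. Unique reads and reads shared with the own parent peak at 22 nt, with 35.4% and 38.9% of their reads there, and reads at over 20 places keep a larger tail from 25 to 30 nt.

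The first base differed with length. In the 19-30 nt library 53.8% (52.0 to 55.7) of short unique reads began with U, and of its unique reads of 25 to 30 nt 77.1% (72.2 to 81.4). Among the short unique reads the antisense ones began with U in 56.9% (54.9 to 58.9) and the sense ones in 38.7% (34.4 to 43.2). The lower share of the sense ones depends on 1 locus, Gm12424, described below. It had 175 short unique reads in this library, against 470 sense ones in all. Over the 3 libraries 207 of its 208 short unique reads were sense, and 0% began with U. The shares without this locus were not computed. In the 24-30 nt library 84.3% (83.0 to 85.5) of all unique reads began with U. The few reads sized 20 to 22 nt there did not have a lower share, with 93.9% (93.0 to 94.7) of all pseudogene reads of that size and 84.6% (72.5 to 92.0) of the 52 unique ones. Sizing there needed only 4 linker bases, which a longer insert can match by chance. Of the 1484509 reads of that library 25664 were sized at 20 nt or longer. How many of these were longer inserts was not tested, so their U share cannot be taken as that of short RNAs. The lower U share of short reads is therefore stated for the 19-30 nt library alone.

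Short reads were concentrated at few loci. Over the 3 libraries 3764 unique reads of 20 to 23 nt came from 258 pseudogenes, of which 48 had 10 or more. Reads of the 26 nt libraries were sized up to 22 nt, so there the class stops at 22 nt. The leading locus held 28.1% of these reads, the first 2 held 42.7% and the first 10 held 67.3%. Of the 48 loci, 33 were over 90% antisense, 24 of them entirely so, 9 were 50% to 90% antisense and 6 were mostly sense. The 48 were longer than pseudogenes at large, with a median span of 1454 nt against 564 nt for all, while the median identity to the parent was 90.8% against 89.9%. Counts were not scaled by length. The ranking by unique reads ends at 21 reads, and the locus after it also had 21. Of the 21 reads at Gm47626, 12 came from the 24-30 nt library, where a longer insert can be sized short by chance.

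Gm16574 (chr17:12818793-12819537, plus strand), a partial copy of Rangap1, the GTPase activating protein of the nuclear transport factor Ran, had most unique short reads. It had 327, 3 and 727 in the 19-24, 24-30 and 19-30 nt libraries, of which 929 were antisense and 128 sense over the 3. It lies 281 nt before Gm7162, which has the opposite strand and is left out here by definition, and inside the span of the antisense RNA gene Airn. Counting each read in full, 1234 of its 2291 short reads (53.9%) also matched Gm7162. The reads were varied, with 352 distinct inserts. In the 19-30 nt library 88.2% (85.8 to 90.3) of its unique reads were 20 to 23 nt long.

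Gm31941 (chr7:46975366-46975715, plus), a copy of Elob, a subunit of ubiquitin ligase complexes, followed with 130, 1 and 421 reads, 547 of 552 antisense. All 547 also lie in an exon of the lincRNA C86187, which is transcribed from the other strand, in its sense direction. The reads came from few starts: 93 distinct inserts, the commonest with 119 reads, and the sequence shown above. Its pattern is therefore less varied than that of Gm16574.

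Gm12424 (chr4:47101032-47101478, plus) stood apart by strand, with 207 sense reads and 1 antisense. It had 33, 0 and 175 reads and lies inside the coding gene Galnt12, on the same strand. The assigned parent Aen, a nuclease gene, aligns to only 25.3% of it. All 207 sense reads began at 1 position, and the commonest insert, with 116 reads, is shown with the base that differs from the pseudogene itself in capitals.
Gm12424 sense: aatcagattgctataagggcG
Only 13 of its 208 reads matched the pseudogene over their whole length, against 690 of 1057 at Gm16574 and 469 of 552 at Gm31941. The assignment of these reads to Gm12424 thus rests on the first 20 nt alone.

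The next loci had antisense reads only or nearly only. Gm6201 (chr14:105199326-105201099, minus), a copy of Lcp1, the actin-bundling protein L-plastin, had 44, 0 and 133 reads, all 177 antisense. They were spread over the locus in 139 distinct inserts, none with more than 5 reads. Gm49591 (chr16:78251053-78251577, plus), a copy of the histone deacetylase gene Hdac1 at 83.6% identity, had 32, 0 and 140 reads, all 172 antisense. These 172 lie in exons of the non-coding gene E330011O21Rik on the other strand. Gm5790 (chr13:47009533-47010945, minus), a copy of the actin-binding coronin gene Coro1c, had 15, 0 and 80 reads, 93 of 95 antisense. Gm9403 (chr3:132842396-132844576, plus), a copy of the chaperone gene Hsp90ab1, had 12, 0 and 72 reads, all 84 antisense. Gm13384 (chr2:6132208-6133956, minus), a copy of the ubiquitin ligase gene Traip, had 21, 0 and 60 reads, all 81 antisense. All of these had no sized short read in the 24-30 nt library.

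The remaining leading loci copy genes of various functions. Gm6018, from the spindle checkpoint gene Mad1l1, had 20 sense and 39 antisense reads, and so reads of both strands. Gm20763, from the mitotic kinesin gene Kifc1, had 48 antisense and no sense reads, and 2 other Kifc1 copies, Kifc5c-ps and Gm21358, had 14 and 11 antisense. Gm16042 copies Fbxo5, an inhibitor of the anaphase-promoting complex, and had 45 antisense reads and none sense. Gm13176 copies Prc1, a microtubule bundler of the spindle midzone, and had 35 antisense reads and 1 sense. Gm18942 (parent Mtfr2, a regulator of mitochondrial fission) and Gm7525 (parent Cfl1, cofilin) had 41 antisense reads each, and Gm6083 (parent Dppa5a, expressed in pluripotent cells) had 37. None of these 3 had a sense read. Gm32996 (parent Cactin) was mixed, with 18 sense and 13 antisense.

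**Figure D2:**
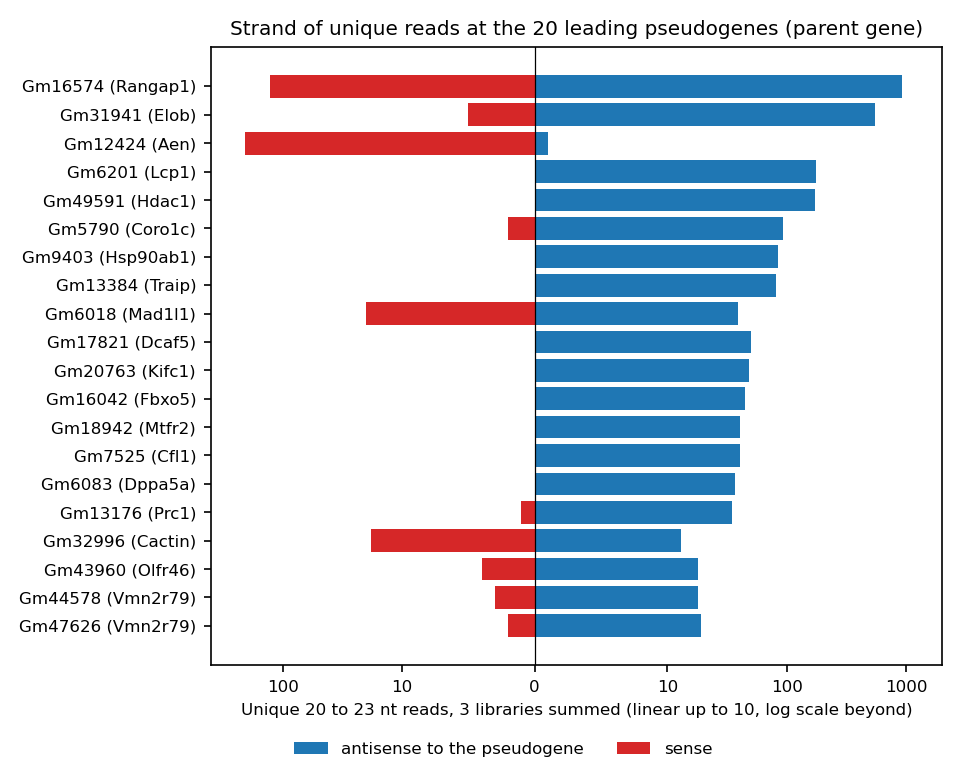
Unique 20 to 23 nt reads of the 20 leading pseudogenes, summed over the 3 libraries (x axis, linear up to 10 and on a log scale beyond), with antisense reads to the right and sense reads to the left. Antisense reads exceed sense reads at each locus but Gm12424 (207 sense, 1 antisense) and Gm32996 (18 sense, 13 antisense).

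Genes on the other strand were common at these loci. Of the 48 pseudogenes with 10 or more unique short reads, 17 (35.4%) lie in the span of a gene on the opposite strand, against 1959 of all 10234 (19.1%). On the same strand it was 5 of 48 (10.4%) against 12.0% of all. Of the 2793 unique antisense short reads of the 48 loci, 1041 match an annotated exon of another gene in its sense direction. These include every antisense read of Gm31941, Gm49591, Gm9403, Gm13384 and Gm16042, and 85 of the 93 of Gm5790.

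The parents of these pseudogenes had unique sense reads of their own. The 36 parents of loci with at least 10 unique antisense short reads had a median of 24 unique sense reads of 20 to 23 nt, and 24 of them (66.7%) had 10 or more. Among all 21951 protein-coding genes the median was 0, and 207 (0.943%) had 10 or more. At least 1 such read was found in 33 of the 36 parents (91.7%) and in 13.1% of all coding genes. Parents of other pseudogenes were not compared. Whether the difference goes with the antisense reads of the pseudogenes was thus not tested. On the antisense strand 6 of the 36 (16.7%) had 10 or more, against 140 of all coding genes (0.638%). The 36 parents had 1409 sense and 216 antisense reads. The highest counts were those of Prc1 (180 sense), Traip (147), Kifc1 (122), Lcp1 (103), Coro1c (82) and Fbxo5 (78). Some parents had few unique sense reads: Hdac1 had 6, Elob 2, and Gapdh none. Reads that a parent shares with its copies are not counted here. Gapdh has 234 pseudogenes, which had 134.4 weighted but 21 unique short reads. Rangap1 had the opposite strand, with 3 sense and 70 antisense reads. Genes for oocyte proteins were among these parents as well, with 54 sense reads for Nlrp9b and 32 for Nlrp5.

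Sense reads of parents were denser where the pseudogene aligns. Over the 39 parents of the 48 loci, each taken once with its leading pseudogene, 721 sense reads lay in 47471 aligned nt and 693 in the other 80130 nt. This is 15.2 against 8.65 reads per 1000 nt, a ratio of 1.76 (1.58 to 1.95). The denser part was the aligned one in 21 parents and the other one in 13. Without each parent in turn the ratio ranged from 1.47 (without Traip) to 2.01 (without Kifc1). Reads that are identical in pseudogene and parent are not unique and enter neither count. By library, these parents had 286, 5 and 1123 sense reads on the aligned transcripts in the 19-24, 24-30 and 19-30 nt libraries.

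Single parents differed widely. Traip had 136 sense reads in the aligned 1410 nt and 11 elsewhere, or 96.5 against 8.49 per 1000 nt. Coro1c had 79 inside and 3 outside, 55.6 against 1.45 per 1000 nt, and Mtfr2 54 inside and 1 outside. In Lcp1 the counts were 80 and 12, or 44.5 against 16.6 per 1000 nt. Other parents had more reads outside: Kifc1 had 25 inside and 97 outside of Gm20763, Dppa5a 6 and 40, and Ube2l3 none inside and 50 outside. In Hdac1 none of the 6 reads lay in the stretch that Gm49591 covers. The antisense reads of Gm9403 and the sense reads of Hsp90ab1 both kept to the 5′ part of the transcript, at nt 131 to 743 and 75 to 652 of 2520, although the alignment runs to nt 2258.

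**Figure D3:**
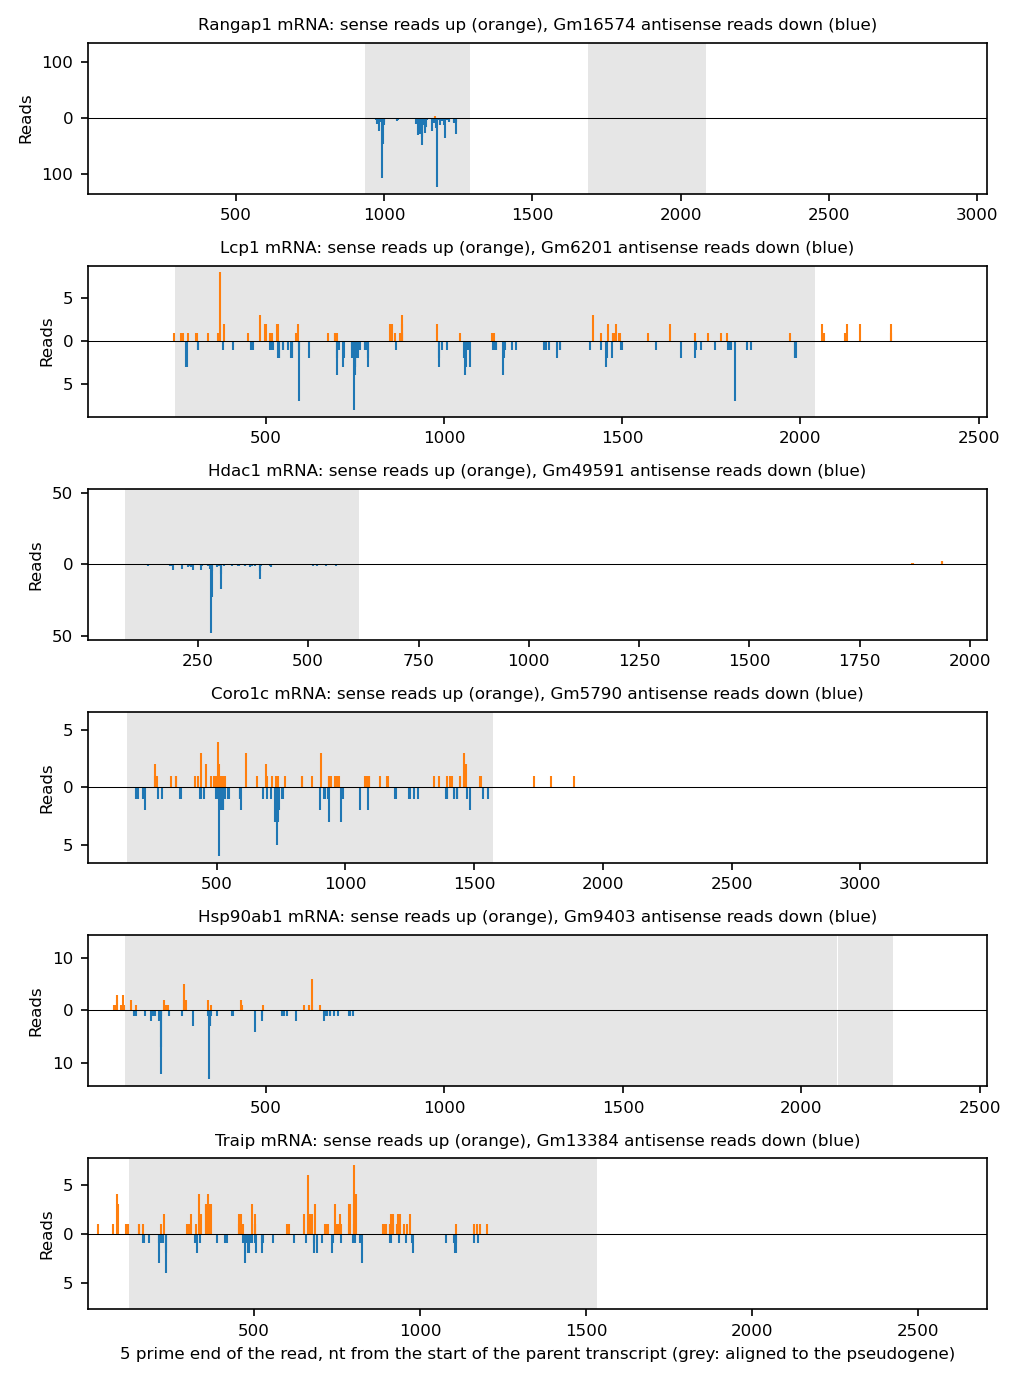
Unique 20 to 23 nt reads of 6 pseudogenes and their parents, 3 libraries summed, by the 5′ end of the read in nt from the start of the parent transcript (x axis). The y axis gives reads, with sense reads of the parent up and antisense reads of the pseudogene down, and grey marks the aligned stretch. In Traip, Coro1c and Lcp1 both kinds occur along much of the grey stretch (in Traip up to nt 1203 and 1175 of a stretch ending at 1532), and at Hdac1 and Rangap1 the antisense reads have few or no sense reads opposite.

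Part of the parental reads came from spliced RNA. Of 1414 sense reads on the 39 parent transcripts, 89 (6.29%) crossed an exon junction, and 3.999% of all 20 nt positions of those transcripts do. Traip had 22 such reads, Prc1 17 and Lcp1 10. Reads shared by a leading pseudogene and its parent at no more than 20 places were present on both strands. Summed over the 48 loci there were 1424 sense and 1730 antisense to the parent. A read shared by several copies of a parent is counted at each copy, so these sums are not numbers of separate reads.

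Overlaps between opposite strands were spread over all lengths from 1 to 25 nt. Double-stranded RNA cut by Dicer leaves pairs whose 5′ ends overlap by about 19 to 21 nt, and the ping-pong cycle of piRNAs leaves overlaps of 10 nt. Between the antisense reads of a pseudogene and the sense reads of its parent, 773 pairs of distinct 5′ ends overlapped by 1 to 25 nt, and 85 of these (11.0%, 8.98 to 13.4) by 19 to 21 nt. Equal numbers at every overlap would give 12%. Within pseudogenes, 24 of 182 pairs (13.2%, 9.02 to 18.9) had 19 to 21 nt. At 10 nt there were 29 and 4 pairs, 3.75% and 2.20%, with 4% at equal numbers. The most frequent overlaps were 18 nt with the parent (45 pairs) and, within pseudogenes, 1 and 25 nt (12 pairs each). These intervals treat pairs as independent, though a 5′ end can enter several. Of the 85 pairs at 19 to 21 nt, Gm13384 with Traip gave 23 and Gm5790 with Coro1c gave 18. Within pseudogenes, Gm16574 gave 114 of the 182 pairs and 15 of the 24 at 19 to 21 nt, and Gm6018 gave 28 and 3. Without Gm16574 the share at 19 to 21 nt was 13.2%. A locus without sense reads cannot give a pair, so this profile comes from few loci.

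**Figure D4:**
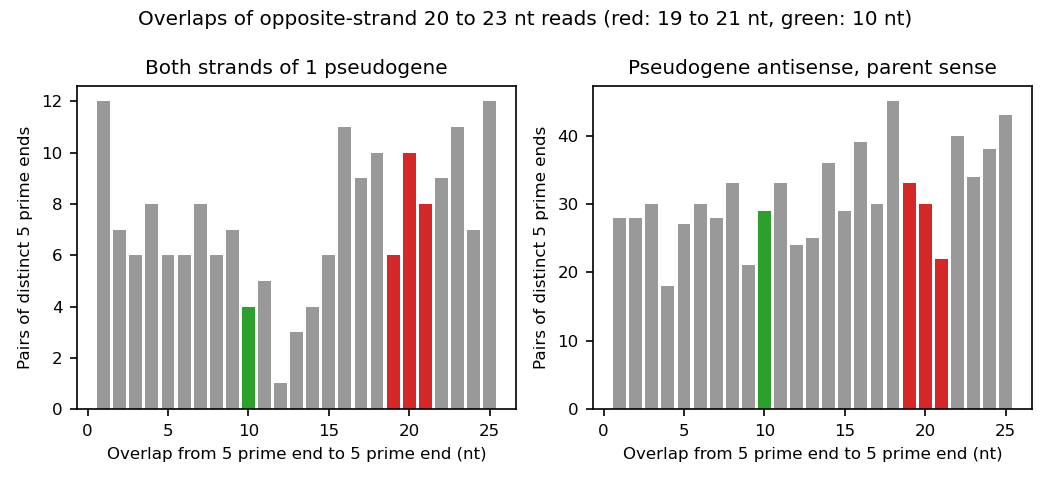
Pairs of distinct 5′ ends (y axis) by the overlap from 5′ end to 5′ end in nt (x axis), over the 48 pseudogenes, within a pseudogene (left) and between pseudogene antisense and parent sense reads (right). Counts run from 1 to 12 on the left and from 18 to 45 on the right, with no peak at 19 to 21 nt (red) or 10 nt (green). Gm16574 gave 114 of the 182 pairs on the left.

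Weighting each read by 1 over its number of places brings a different group to the front. Of the 20 pseudogenes with most weighted short reads, 11 belong to a family of 47 whose best coding alignment is the vomeronasal receptor gene Vmn2r79. The family has a median span of 3835 nt and a median identity of 91.5%, on 9 chromosomes. None of the aligned bases of the Vmn2r79 transcript is coding: all lie between nt 5443 and 8763 of it, so the alignment holds none of the receptor's coding sequence. No repeat annotation was used here, and whether the stretch is a repeat was not tested, so the name of the parent and the sharing of these reads with it say little about Vmn2r79 itself. Their reads matched a median of 39, 39 and 38 places in the 19-24, 24-30 and 19-30 nt libraries. They made up 27.3% (26.6 to 28.0), 55.3% (54.9 to 55.6) and 33.9% (33.4 to 34.4) of all pseudogene reads. Antisense reads outnumbered sense reads at the family, 38171 to 15500 in the 24-30 nt library and 9014 to 4432 in the 19-30 nt library. In the latter 64.3% (63.5 to 65.2) were 20 to 23 nt and 30.8% (30.1 to 31.6) were 25 to 30 nt. Weighted short reads per locus among the 11 ranged from 153.0 at Gm48417 to 193.2 at Gm37515, and since the loci share reads they are not separate measurements. These sums include reads sized as short in the 24-30 nt library, which may be longer inserts, as said above. They were 36.8 of the 193.2 at Gm37515 and 38.2 of 190.5 at Gm48498. In the 19-30 nt library alone, 17 of the 20 loci stayed in the ranking. The ranking ended at 153.0 weighted reads, and the first locus outside it had 152.1.

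Other loci entered the weighted list through shared reads. Gm14654, assigned to the same parent as Gm12424 and of the same length, had 291.2 weighted but 3 unique reads. Gm21358, a Kifc1 copy, had 192.4 weighted and 11 unique reads, and Gm48368, aligned to Noct, 210.8 and 18. By contrast Gm16574 and Gm31941 led in both lists, with 1607 and 553.0 weighted reads.

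The 24-30 nt library had its own leading loci. Of its 3378 unique reads, from 158 pseudogenes, 66.8% came from 10. Gm17821 (chr12:67658527-67669276, minus), a copy of Dcaf5, a ubiquitin ligase receptor gene, had 511, all antisense, and 94.1% (91.7 to 95.9) of them began with U. They were varied, and the commonest insert had 106 reads. In the other libraries it had 31 and 52 unique reads. Gm48418 (chr12:63927954-63931761, plus), of the Vmn2r79-aligned family, had 401, with 390 antisense and 90.3% (87.0 to 92.8) beginning with U. Gm47967 (chr10:54211734-54212823, plus), aligned to the olfactory receptor gene Olfr46, had 350, with 347 antisense and a lower share beginning with U (interval 54.8% to 65.0%). Gm44578 and Gm47056 had 260 and 258, with 98.8% and 95.7% beginning with U. At each of the 10 loci over 80% of the unique reads were antisense. Gm17821 and Gm44578 are also among the 20 loci with most unique short reads, and the other 8 are not.

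Levels were also compared between the 2 narrow windows. All pseudogene reads together had a 19-24 over 24-30 nt ratio of 0.179 (0.176 to 0.182), and unique reads 0.530 (0.499 to 0.563). These levels are relative to all matched reads, microRNA included. Without microRNA reads in the total the ratio was 0.845, and for reads sized 20 to 22 nt alone it was 3.31. Among all 1949 genes with at least 10 weighted reads, 3.8% were 10-fold higher and 11.7% 10-fold lower in the 19-24 nt library, counts under 3 being raised to 3. Of the 179 pseudogenes among them, 13 (7.26%) were 10-fold higher and 68 (37.99%) 10-fold lower. The median ratio was 0.153 for the 179 pseudogenes and 0.264 for all 1949 genes. Shared reads were divided among their places, so loci that share reads, as in the Vmn2r79-aligned family, are not separate measurements. How many of the 68 belong to that family was not counted. The named loci were chosen by their reads in these same libraries, so their ratios are a description. The 13 include Gm31941, at 64.8-fold, Gm16574 at 36.6-fold and Gm6201 at 35.0-fold, while Gm17821 (0.0782) and Gm43960 (0.0989), also among the 20 with most unique short reads, were 10-fold lower, and the 13 named Vmn2r79-aligned loci had ratios from 0.0648 (Gm44578) to 0.103 (Gm43540).

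**Figure D5:**
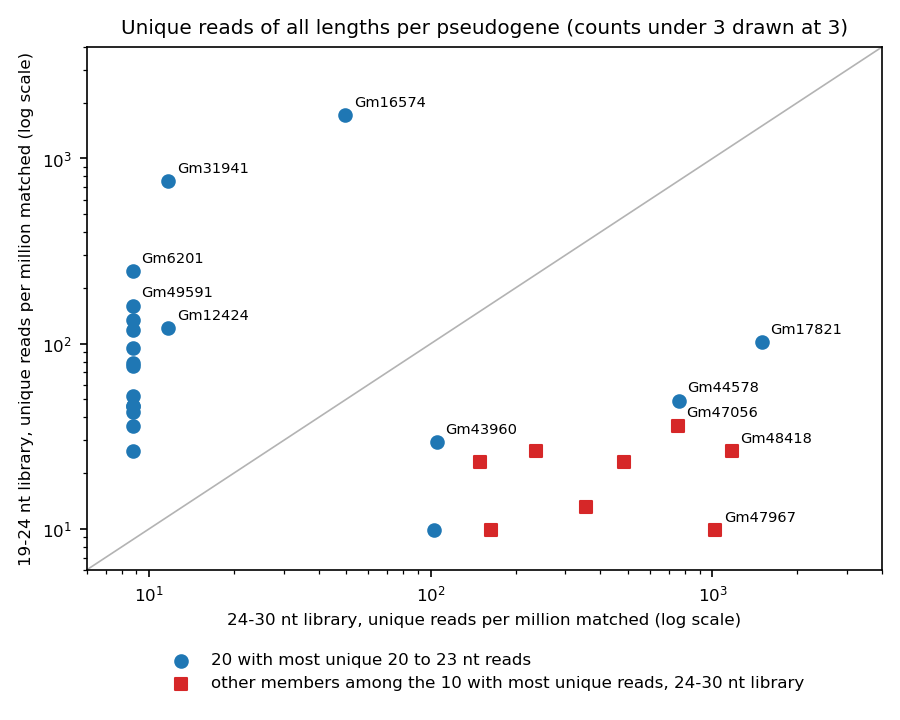
Unique reads of all lengths per pseudogene, per 1000000 matched reads, 24-30 nt library on the x axis and 19-24 nt library on the y axis, both on log scales, with counts under 3 drawn at 3. Most of the 20 loci with most short reads (circles) lie above the line of equal levels, and Gm17821, Gm44578, Gm43960 and Gm47626 lie below it with the loci that lead the 24-30 nt library (squares).

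The parents were grouped by function from the first letters of their symbols, so the groups are incomplete. The actin-binding parents Lcp1 and Coro1c, for example, are not in the cytoskeletal group. With shared reads counted, 2420 of all 10234 pseudogenes had a short read. By group it was 956 of 2307 ribosomal protein copies, 223 of 329 glycolytic, 97 of 217 chaperone and 77 of 156 cytoskeletal ones. It was 57 of 164 translation factor, 106 of 397 histone and chromatin, 14 of 110 cell cycle and Ran, and 9 of 263 mitochondrial copies. The counts that follow are of unique short reads alone, which leave out reads shared between copies. Of all 10234 pseudogenes, 2.52% had a unique short read. The largest group, 2307 copies of ribosomal protein genes, had 35 loci (1.52%) and 68 reads, led by Gm4796, from Rps6, with 12 antisense. Mitochondrial and respiratory chain copies had none among 263 loci. Cytoskeletal parents stood higher, with 15 of 156 loci (9.62%) and 137 reads, 130 of them antisense, mostly at the Kifc1 and Cfl1 copies. Translation factors had 8 of 164 (4.88%), chaperones 7 of 217 (3.23%) with 102 of 103 reads antisense, glycolytic enzymes 8 of 329 (2.43%) and histone and chromatin genes 6 of 397 (1.51%). The last group had 209 reads, of which Gm49591 gave 172. In the cell cycle and Ran group 1 of 110 loci had unique short reads, Gm16574. Mad1l1, Fbxo5 and Prc1 are not in that group, and their copies Gm6018, Gm16042 and Gm13176 had 59, 45 and 36 such reads. The value therefore does not describe cell cycle parents at large. The median count of every group was 0, as it was over all pseudogenes.

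Parents known for siRNAs in mouse oocytes were a group of 26 pseudogenes, of Hdac1, Cdk1, Dynll1 and Rangap1, and the genes were listed because of that knowledge, so the count is no independent evidence. Of the 26, 6 (23.1%) had a unique short read. Besides Gm16574 and Gm49591, these were the Hdac1 copy Gm4864 with 11 sense reads, and the copies of Dynll1, a dynein light chain gene, Gm7802 with 9 antisense, Gm45070 with 3 antisense and Gm19563 with 1 sense. Neither of the Cdk1 copies had any short read, weighted or unique. The Hdac1 copies thus differ in strand, with Gm49591 wholly antisense and Gm4864 wholly sense.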

How the data were processed

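The deposited files hold single reads with a quality per base and with the 3′ linker in place, of 26 nt in the 19-24 and 24-30 nt libraries and 36 nt in the 19-30 nt library, so counts were made here. Gel slices were ligated, amplified and sequenced, per the labels' protocols. The labels name no aligner, filter or build of the authors.

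The linker was sought with at least 4 (26 nt reads) or 6 (36 nt reads) called bases and up to 20% mismatches. Inserts were sized up to 22 and 30 nt. Reads without linker count as 23 nt or longer in 26 nt reads, and as over 30 nt, set aside, in 36 nt reads. The first 20 nt had to match at least 1 of 141767 GENCODE M21 transcripts perfectly, on either strand, at no more than 1000 places, with at least 8 distinct 3-mers. No genome was searched, so a unique read can also match unannotated sequence. Nuclear tRNA sequences were not used here. Parents are the best plus-strand blastn 2.17.0 alignment (word size 16, e-value up to 1e-10) to coding transcripts that do not overlap the locus. Trimming and matching were tested on simulated data. Intervals are Wilson (shares), exact Poisson (levels) and conditional binomial (ratios). A count of 0 to 3 is raised to 3 in folds.

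Named loci are the 20 with most weighted and the 20 with most unique 20 to 23 nt reads, their parents and the listed parent groups. Others named were chosen after their values were seen: Ube2l3, Nlrp9b, Nlrp5, Kifc5c-ps and the loci leading the 24-30 nt library. Members and lists were chosen with earlier results of these data known.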

Additional observations from a re-analysis of the deposited data

Results flagged for a closer look

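In the 19-30 nt library 311671 reads of 36 nt showed no linker, so that their inserts are over 30 nt, and they were outside the main measurement. Of these, 14024 matched processed pseudogenes outside structural RNA. The count is given because these reads enter no comparison and it is above the 3 reads that a count of 0 allows, which says nothing on whether it is high. Among them 1111 were unique, and 912 of those (82.1%) were antisense to the pseudogene. No control library was made, and the gel window ended at 30 nt.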

How the results depend on the processing

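No paired analysis was possible because there is 1 library per window. Values are given in the order 19-24, 24-30 and 19-30 nt library where there are several, and each was outside the counting interval of the reported one. With structural RNA matches kept, levels were 66322, 294005 and 299186 per 1000000 matched reads, the unique share 26.6% (19-24 nt) and 9.44% (19-30 nt), the share also in coding genes 67.3%, 91.3% and 84.0%, and the antisense share of unique reads 25.3%, 81.0% and 67.3%. The first of these turns the strand, through the let-7i reads at D630033A02Rik. The 20 to 23 nt share was then 75.3% (74.6% as reported for all pseudogene reads), the U share 62.3% (61.7% as reported) and the 19-24 over 24-30 nt ratio 0.226. With each distinct insert counted once, levels were 164565, 272407 and 316851, unique shares 9.62%, 5.72% and 8.55%, coding-shared 82.5%, 86.5% and 83.2%, antisense 72.3% (24-30 nt), the 20 to 23 nt share 69.5%, U 54.7% and the ratio 0.604. With the first 22 nt matched, levels were 37858, 235737 and 262211, unique shares 12.4%, 7.46% and 9.38%, coding-shared 79.5%, 86.3% and 83.2%, antisense 74.2% (24-30 nt) and 85.2% (19-30 nt), the 20 to 23 nt share 62.7% (shorter inserts cannot enter), U 64.7% and the ratio 0.161. Without Gm16574, unique shares were 7.45% (19-24 nt) and 6.45% (19-30 nt), and antisense 81.2% (19-30 nt). A linker overlap longer by 4 bases gave 86.1% of 20 to 23 nt, since longer inserts are then not sized. Unique reads alone gave 84.6%, with U at 53.8%. The ratio was 0.845 without microRNA reads in the total, and turned to 3.31 for reads sized 20 to 22 nt. Of the 20 loci leading by weighted short reads, 6 remained when ranked by unique reads, 9 with reads counted in full and 17 in the 19-30 nt library alone. Chosen after seeing the data, limits of 10 and 50 places gave own-parent shares of 8.83% and 23.5%. Leaving out 1 parent gave ratios of 1.47 to 2.01 inside over outside the alignment. With the whole insert matched, unique short reads were 13 rather than 208 at Gm12424, 690 rather than 1057 at Gm16574, 29 rather than 59 at Gm6018, 25 rather than 41 at Gm18942, 20 rather than 31 at Gm32996, 10 rather than 22 at Gm43960 and 13 rather than 21 at Gm44578. Where no cause is given, the cause was not tested. Uniqueness in the genome was not run because no genome sequence was used here. With 1 library per window, depth limits loci with few reads.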

Other observations

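The reads set apart as structural RNA hold a pseudogene annotation that contains a microRNA. D630033A02Rik, annotated as a processed pseudogene, overlaps the let-7i gene Mirlet7i, a member of the let-7 microRNA family, in the same strand. Of the reads matching only this place, 3789 (19-24 nt), 111 (24-30 nt) and 763 (19-30 nt) were counted, all sense. No other pseudogene had reads that match it uniquely together with a structural RNA gene at the same place.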
